A study of Mus musculus with 13 samples.

Results

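The mitochondrial ribosomal proteins are the nuclear-encoded proteins of the ribosome inside mitochondria, here 76 of the 18193 mouse genes with a value. They were chosen by name. A gene was a member if its symbol was Mrpl or Mrps followed by a number and at most 1 letter, on probe sets whose platform annotation named that gene alone. The family was proposed for description with earlier results of these data known, so no p over the whole list is given. The 76 genes lay on 156 probe sets, 34 genes on 1 probe set and 42 on several, up to 8 for Mrpl15. Mrpl30 and Mrpl53 lay only on probe sets shared with another gene and have no value here.

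The mitoribosome translates the few messages of mitochondrial DNA, which encode core subunits of the respiratory chain and of ATP synthase. Its RNA is transcribed in mitochondria, but its proteins are made in the cytosol and imported. Some of them have counterparts in bacterial ribosomes, and others were gained in the mitochondrial lineage. By these known roles, 49 members belong to the large subunit, which forms peptide bonds, with 28 bacterial-type and 21 mitochondrial-specific proteins. The small subunit, which reads the message, holds 26 members, 16 bacterial-type and 10 mitochondrial-specific. Mrps18a and Mrps30 are counted with the large subunit, where their proteins sit. Mrps18a and Mrps18b are counted as mitochondrial-specific, although their proteins are related to bacterial S18. Mrps36 carries a ribosomal name but is now known as a part of the alpha-ketoglutarate dehydrogenase complex, and is in neither count.

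The cells were C2C12, an established line of mouse myoblasts (precursors of skeletal muscle). They were held in 0.2% fetal bovine serum (FBS) for 24 h and then returned to medium with FBS, in a study that sought oscillating genes. RNA was measured on 1 Affymetrix array at each of 13 times from 0 to 6.0 h, every 0.5 h, with no replicate array. The arrays were grouped by labelled time into 0 h (1 array, cells at the end of low serum) and then 3 windows of 4 arrays each. The early window ran from 0.5 to 2.0 h, the middle one from 2.5 to 4.0 h and the late one from 4.5 to 6.0 h. No untreated culture kept in low serum or in full serum over the same hours was used here. The deposited values are ratios to a reference of each probe set's own, so they show change over time and not whether one gene is expressed more than another. For the same reason, the labelled cell type could not be checked by the presence of its markers. Changes are log2 differences ± standard error (SE) from limma over all genes, with Benjamini-Hochberg adjusted p called at 0.05. Arrays of a window are different times, so a p measures the spread within windows, real change included, and 0 h is assumed to vary like the other times. In such bulk RNA, fewer cells with a message and less message per cell cannot be told apart.

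Promoters of 4 members are shown first, because the family's steepest riser, Mrps18b, has paralogs, Mrps18a and Mrps18c, that were not called in any window comparison. The fourth is Mrpl12, the next largest rise. Each sequence is the 250 bases before the annotated start, 5′ to 3′ in the direction of the gene, from RefSeq on GRCm38.p6. Capitals mark exact matches on either strand to the words searched, which were GCATGCGC (bound by NRF1), CCGGAAGT (GABPA and other ETS factors), CACGTG (the E-box, bound by Myc among others), AAGATGGC (YY1) and GGGCGG (SP1). They lie at chr17:35916441-35916690 on the minus strand for Mrps18b, chr11:120484387-120484636 on the plus strand for Mrpl12, chr17:46110754-46111003 on the plus strand for Mrps18a and chr5:100798509-100798758 on the plus strand for Mrps18c.
Mrps18b: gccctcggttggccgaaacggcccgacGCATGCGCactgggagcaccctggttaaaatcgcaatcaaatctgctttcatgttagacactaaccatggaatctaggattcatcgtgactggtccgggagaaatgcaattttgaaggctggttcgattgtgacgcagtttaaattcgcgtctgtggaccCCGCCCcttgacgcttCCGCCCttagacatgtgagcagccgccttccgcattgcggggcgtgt
Mrpl12: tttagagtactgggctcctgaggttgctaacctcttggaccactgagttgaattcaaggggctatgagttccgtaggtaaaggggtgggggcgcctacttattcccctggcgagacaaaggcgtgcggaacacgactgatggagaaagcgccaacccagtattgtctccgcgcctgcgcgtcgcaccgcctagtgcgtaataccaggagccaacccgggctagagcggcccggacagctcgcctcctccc
Mrps18a: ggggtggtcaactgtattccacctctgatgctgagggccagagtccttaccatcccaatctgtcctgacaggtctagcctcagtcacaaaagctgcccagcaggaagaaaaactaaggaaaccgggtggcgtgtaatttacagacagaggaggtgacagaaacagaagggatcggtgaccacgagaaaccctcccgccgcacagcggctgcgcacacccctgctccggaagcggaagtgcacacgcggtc
Mrps18c: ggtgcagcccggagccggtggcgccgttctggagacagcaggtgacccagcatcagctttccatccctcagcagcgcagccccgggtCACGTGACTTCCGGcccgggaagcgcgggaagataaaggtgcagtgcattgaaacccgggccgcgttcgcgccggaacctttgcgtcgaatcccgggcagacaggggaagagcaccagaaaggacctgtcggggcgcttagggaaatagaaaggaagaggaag

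The Mrps18b promoter held the NRF1 word 223 bases before the start and the SP1 word, in reverse, 63 and 47 bases before it. The Mrps18c promoter held an E-box 163 bases before the start, followed directly by the ETS word, in reverse. The printed stretches of Mrpl12 and Mrps18a held none of the 5 words. Past the printed bases, Mrps18b held a further NRF1 word 29 bases after the start and Mrps18a a YY1 word 12 bases after it. An SP1 word of Mrps18c began 1 base before the start and ran past the printed bases. A match is a description of letters and not a bound site. Over the whole window of 300 bases, 250 before the start and 50 after it, 67 of the 76 members were matched, with 73 promoters. The ETS word was in 16.4% of these and in 3.89% of all 32851 promoters in the RefSeq table. The corresponding shares were 16.4% and 2.75% for the YY1 word, 11.0% and 2.71% for the NRF1 word, 9.59% and 7.15% for the E-box, and 53.4% and 35.7% for the SP1 word. Base composition was not matched in these shares. Counted once per gene, the E-box was in 7.46% of the members and 8.09% of all genes, since 3 of its matches were promoters of Mrpl2. By gene, the ETS word and the YY1 word were each in 6 of the 33 matched members called higher late than early and in 6 of the 34 others. The counts were 3 and 5 for the NRF1 word, 3 and 2 for the E-box, and 15 and 19 for the SP1 word.

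The family as a whole stood low just after serum return and high at the end of the course. Between the early and the late window, 38 of the 76 members rose and 0 fell, against 11.7% of all genes called higher and 9.29% called lower. At an unadjusted p under 0.05 by limma, 47 were higher and 0 lower. The median change was 0.18 over the members, with quartiles of 0.10 and 0.31, beside 0.02 over all genes. It was above 0 for 70 members, and the 6 below it were Mrpl4, Mrps18c, Mrps21, Mrpl24, Mrpl33 and Mrpl45, none of them called. The 38 rises ran from 1.13-fold to 1.91-fold, and 25 of them passed 1.2-fold. In 44 members, all 4 late arrays stood above all 4 early arrays, which was so for 14.1% of all genes. The opposite order was seen in 0 members and in 11.1% of all genes. A smooth curve fitted through all 13 times (a natural cubic spline, 4 degrees of freedom) was called in 42 members, 55.3% of the family, and in 38.0% of all genes. Members just inside the threshold of the late minus early call were Mrps15 (adjusted p = 0.0451) and Mrps28 (0.0479), and just outside it were Mrpl47 (0.0527) and Mrps30 (0.0534). Under quantile normalization or median centring of each array, the median change was 0.19 and 0.18, above 0 for 69 and 70 members. Of the 38 calls, 22 held in each of 20 settings, the main one included, Mrps18b, Mrpl12, Mrpl50, Mrpl16 and Mrps25 among them.

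**Figure D1:**
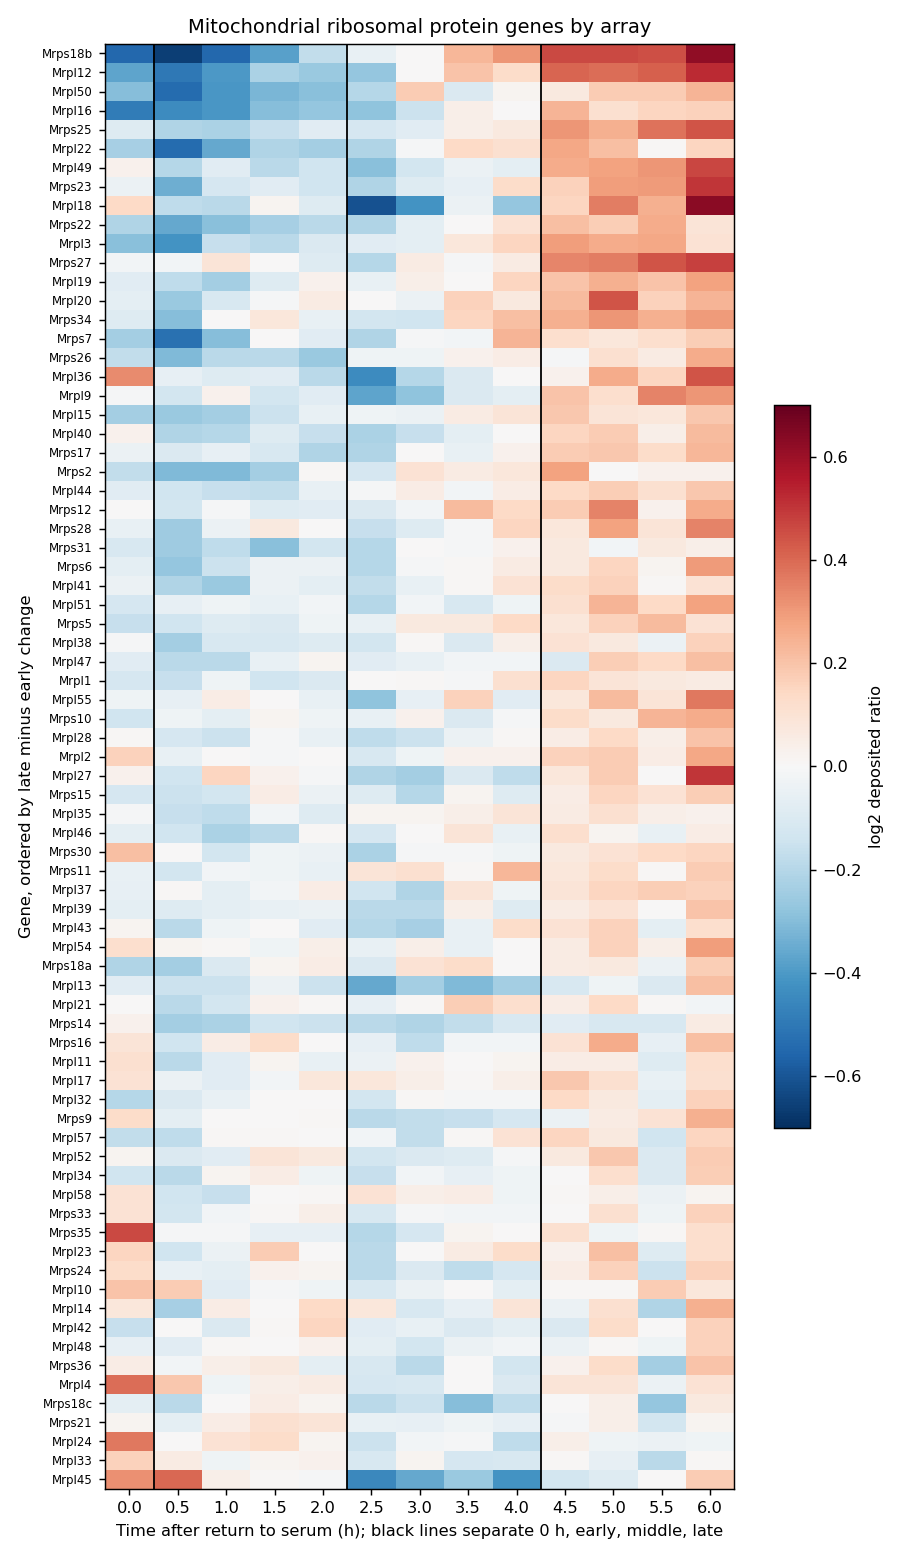
Log2 deposited ratio of each of the 76 members (rows, ordered by late minus early change) on each of the 13 arrays (columns, hours after return to serum, 1 array per time). Blue is below the probe set's own reference and red above it. Most rows turn from blue to red from left to right, the 2.5 h column is blue in most rows, and 42 members had their highest value at 6.0 h.

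The rise was not even from array to array. The median log2 ratio of the members was -0.04 at 0 h and -0.146 at 0.5 h, then -0.083, -0.017 and -0.04 on the other early arrays. It fell to -0.132 at 2.5 h and stood at -0.041, -0.008 and 0.001 at 3.0, 3.5 and 4.0 h. The late arrays gave 0.084, 0.136, 0.038 and 0.174. Thus the family was low at 0.5 and 2.5 h, and its 5.5 h array was lower than both of its neighbours. At 2.5 h, 6 members were above their reference (7.89%, beside 31.8% of all genes), and at 6.0 h 74 were (97.4%, beside 49.9%). The 2.5 h array was also the lowest for all genes, with a median of -0.051. The lowest array was that of 0.5 h for 28 members (36.8%, beside 12.3% of all genes) and that of 2.5 h for 23 (30.3%, beside 11.5%). Members followed each other across arrays, with a mean pairwise correlation of 0.466 over the 13 arrays. This mean was 0.445 within the large subunit, 0.512 within the small subunit, 0.335 within the cytosolic ribosomal proteins and 0.014 over all genes. These points share the same arrays and scaling, and the correlation is a description only.

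Cytosolic ribosomal proteins, which build the ribosomes outside mitochondria, dipped on the same arrays. Their 43 measured genes had a median of -0.089 at 0.5 h, -0.085 at 2.5 h, 0.084 at 5.0 h, 0.009 at 5.5 h and 0.149 at 6.0 h. Only 3 of them rose from early to late and 0 fell, beside 11.7% of all genes higher and 9.29% lower. Their median change was 0.07, beside 0.18 for the mitochondrial family. From middle to late, 9 of the 43 rose and 0 fell, beside 10.3% of all genes higher and 2.06% lower. The median of this step was 0.13, beside 0.16 for the mitochondrial family. The 3 early to late rises were Rpl14 (0.52 ± 0.11, adjusted p = 0.00292), Rps20 (0.23 ± 0.07, adjusted p = 0.0307) and Rpl41 (0.20 ± 0.06, adjusted p = 0.0383). The difference between both families was not tested.

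**Figure D2:**
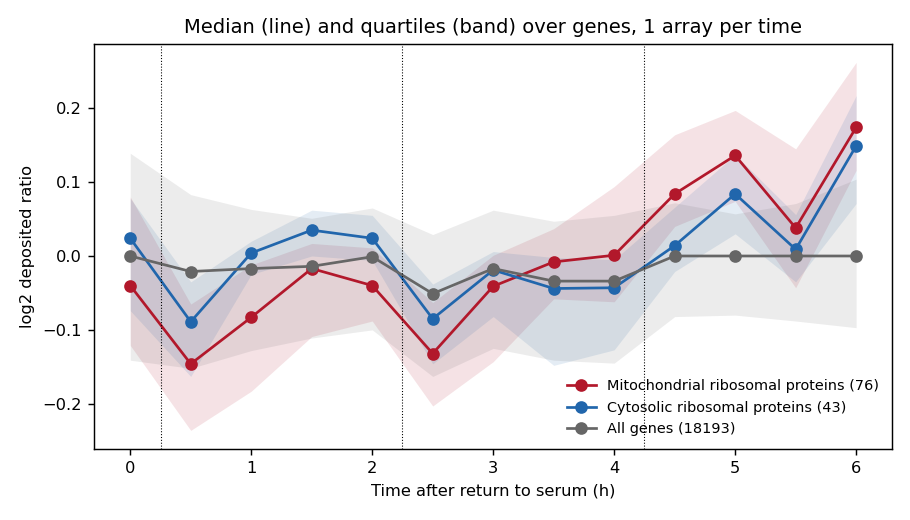
Median (line) and quartiles (band) of the log2 deposited ratio over 76 mitochondrial ribosomal protein genes, 43 cytosolic ribosomal protein genes and all 18193 genes, by hours after return to serum. Both ribosomal families dip at 0.5, 2.5 and 5.5 h, and the mitochondrial one ends highest, at 0.174 at 6.0 h.

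Other measures moved with the late rise, and their part in it was not tested. Markers of differentiated muscle rose from early to late in 7 of 7 genes (median 0.34), beside 11.7% of all genes higher and 9.29% lower. Of 10 myoblast markers, 1 rose, Mymk (0.44 ± 0.07, adjusted p = 0.000727), and 0 fell (median -0.02). Among markers of other cell types, 0 of 5 fibroblast genes rose and 2 fell, and 0 of 4 adipocyte genes and 0 of 5 blood and endothelial genes were called. The median over the 12 probe sets of poly-A RNA spike-ins ran from -0.19 to 0.12 on the early arrays and from 0.02 to 0.33 on the late arrays. Its late minus early difference was 0.22, beside the median change of 0.18 over the members. The 18S ribosomal RNA probe sets were 1.96 (5′ end), 0.48 (middle) and 0.61 (3′ end) higher late than early, and the 5′ one spanned -1.28 to 0.49 early and -0.17 to 2.39 late. In contrast, the median over the 9 hybridization spike-in probe sets differed by -0.28 late minus early. The 3′ minus 5′ difference, a sign of RNA quality, moved by -0.02 for Actb and 0.02 for Gapdh.

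By subunit, 17 of the 26 small-subunit members rose from early to late (median change 0.26) and 21 of the 49 large-subunit members did (median 0.17). In this comparison, 11.7% of all genes were called higher and 9.29% lower. Of the small-subunit members classed as mitochondrial-specific, 8 of 10 rose (median 0.38), beside 9 of 16 bacterial-type ones (median 0.19). The 10 include Mrps18b, whose protein is related to bacterial S18. In the large subunit, 14 of 28 bacterial-type members rose (median 0.18) and 7 of 21 mitochondrial-specific ones did (median 0.15). The differences between these groups were not tested. Mrps36 was at 0.03 ± 0.08 (adjusted p = 0.88).

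**Figure D3:**
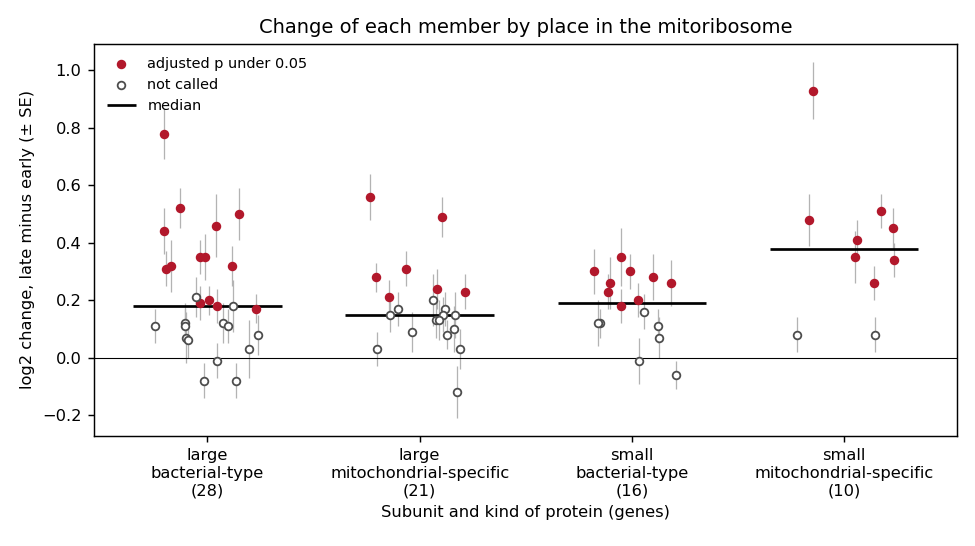
Late minus early log2 change (± SE, 4 arrays against 4) of each member by subunit and kind of protein, without Mrps36. Filled points passed an adjusted p of 0.05, open points did not, and lines are medians. Of the 10 mitochondrial-specific small-subunit members 8 are filled, beside 11.7% of all genes called higher.

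Among small-subunit members, the largest rise was that of Mrps18b, whose protein is one of 3 paralogs related to bacterial S18. Its ratio was 0.681 at 0 h, then 0.635, 0.685, 0.77 and 0.889 on the early arrays. It went on to 0.963, 1.0, 1.17 and 1.24 in the middle window and to 1.38, 1.37, 1.36 and 1.54 in the late window. Every late array was above every middle array and every middle array above every early one. The late minus early change was 0.93 ± 0.10, or 1.91-fold (adjusted p = 3.72e-05), and the spline gave adjusted p = 1.19e-07.

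The paralog Mrps18a, whose protein sits in the large subunit, was not called. Its ratio was 0.867 at 0 h, 0.849, 0.933, 1.01 and 1.04 early, 0.934, 1.07, 1.1 and 1.0 in the middle, and 1.04, 1.05, 0.971 and 1.12 late. Its windows overlapped, and the late minus early value was 0.13 ± 0.07 (adjusted p = 0.254). Mrps18c, the bacterial-type S18 of the small subunit, read 0.955 at 0 h and 0.875, 1.0, 1.04 and 1.01 early. It read 0.877, 0.901, 0.813 and 0.882 in the middle and 1.0, 1.03, 0.83 and 1.05 late, again with overlap, for a value of -0.01 ± 0.08 (adjusted p = 0.948). Each paralog was measured by 1 probe set, and the differences between paralogs were not tested.

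Further proteins of the mitochondrial-specific small-subunit group were among the larger changes. Mrps25 had ratios of 0.861 to 0.943 on the early arrays and 1.19 to 1.36 on the late arrays (0.51 ± 0.06, adjusted p = 6.22e-05). Mrps23 had ratios of 0.788 to 0.947 early and 1.12 to 1.41 late (0.48 ± 0.09, adjusted p = 0.000958). In both genes the early and late ranges were apart, and the middle range overlapped the early one. Mrps22 went from 0.781 to 0.877 early to 1.06 to 1.2 late (0.45 ± 0.07, adjusted p = 0.000329). Mrps27, which carries the pentatricopeptide repeats common among RNA-binding proteins of organelles, was flat and then stepped up. Its ratio was 0.987 at 0 h, 0.986, 1.06, 1.0 and 0.941 early, 0.869, 1.04, 0.991 and 1.04 in the middle, and 1.27, 1.29, 1.35 and 1.39 late.

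Among large-subunit members, Mrpl12 rose most. Its protein forms the stalk that recruits translation factors to the ribosome. Its ratio was 0.775 at 0 h, 0.708, 0.759, 0.861 and 0.834 early, 0.827, 1.0, 1.15 and 1.09 in the middle, and 1.33, 1.31, 1.34 and 1.44 late. All late arrays were above all others, while the lowest middle array, at 0.827, lay below the highest early one, at 0.861. The late minus early change was 0.78 ± 0.09, or 1.72-fold (adjusted p = 5.52e-05).

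Mrpl50, a mitochondrial-specific protein, had ratios of 0.811 at 0 h, 0.687, 0.751, 0.802 and 0.819 early, 0.868, 1.13, 0.93 and 1.01 in the middle, and 1.05, 1.13, 1.13 and 1.18 late. Every early array was below all later ones, while middle and late overlapped, and the late minus early change was 0.56 ± 0.08 (adjusted p = 0.000229). Its 2 probe sets differed in size, at 0.30 and 0.82. Mrpl16, a bacterial-type protein, rose by 0.52 ± 0.07 (adjusted p = 0.000154), from ratios of 0.738 to 0.827 early to 1.08 to 1.18 late. Mrpl22, whose bacterial counterpart lines the exit tunnel for new peptides, rose by 0.50 ± 0.09 (adjusted p = 0.00107). It ran from 0.688 to 0.864 early and from 1.01 to 1.21 late. Mrpl49, a mitochondrial-specific protein, read 1.02 at 0 h, 0.871, 0.944, 0.874 and 0.905 early, 0.819, 0.917, 0.973 and 0.95 in the middle, and 1.2, 1.22, 1.24 and 1.38 late (0.49 ± 0.07, adjusted p = 0.000137). Its late arrays stood above all 9 others.

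**Figure D4:**
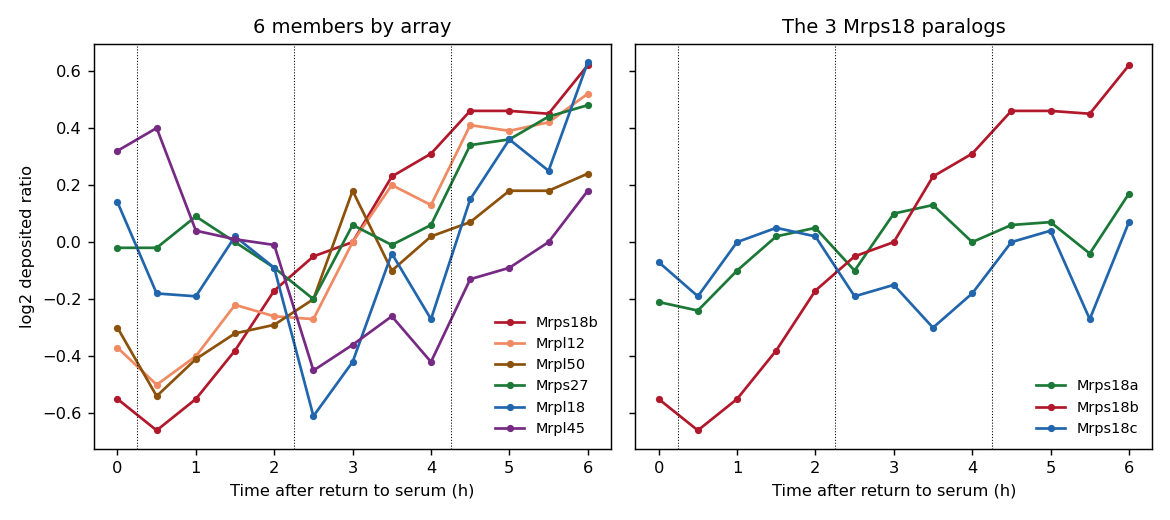
Log2 deposited ratio by hours after return to serum, 1 array per point, for Mrps18b, Mrpl12, Mrpl50, Mrps27, Mrpl18 and Mrpl45 (left) and for the 3 Mrps18 paralogs (right); dotted lines separate the windows. Mrps18b climbs through all windows to 0.62 at 6.0 h, Mrpl18 and Mrpl45 dip in the middle window, and Mrps18a and Mrps18c stay near their reference.

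Members differed in which step of the rise was called, and differences between members were not tested. The early, middle and late windows enter 3 comparisons that share arrays, so these values are set side by side. From early to middle, 11 members rose and 1 fell, beside 7.74% of all genes higher and 14.4% lower, with a median of 0.02. From middle to late, 23 rose (30.3% of the family) and 0 fell, beside 10.3% of all genes higher and 2.06% lower, with a median of 0.16. At an unadjusted p under 0.05 by limma, 39 were higher and 0 lower in this step. All middle arrays stood above all early ones in 10 members (8.03% of all genes), and all late arrays above all middle ones in 27 (15.5% of all genes). All 11 members that rose from early to middle were among the 38 that rose from early to late, as were 18 of the 23 that rose from middle to late. Both steps were called for 4 members. These were Mrps18b (0.56 ± 0.10 and then 0.38 ± 0.10), Mrpl12 (0.36 ± 0.09 and 0.42 ± 0.09), Mrpl16 (0.25 ± 0.07 and 0.26 ± 0.07) and Mrps22 (0.22 ± 0.07 and 0.23 ± 0.07). In 13 of the 38, 50% or more of the late minus early change was reached in the middle window, and in 9 the middle window was below the early one.

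Members that had moved by the middle window included Mrpl50 (0.36 ± 0.08, adjusted p = 0.00616), Mrpl22 (0.34 ± 0.09, adjusted p = 0.0143), Mrps26 (0.24 ± 0.06, adjusted p = 0.0115) and Mrpl3 (0.23 ± 0.08, adjusted p = 0.0434). The middle window of Mrps26, a mitochondrial-specific small-subunit protein, lay between 0.977 and 1.04, above its early range of 0.807 to 0.875. The middle to late step was not called for these 4. The first step depended on single arrays. Of the 11 rises, 5 were left without the 0.5 h, the 1.0 h, the 3.5 h or the 4.0 h array and 7 without the 1.5 h array. Leaving out a single array other than those of 0, 2.0, 2.5 and 6.0 h ended the first-step call of Mrpl16, Mrpl3 or Mrps22, at adjusted p values from 0.0502 to 0.122. With 1 probe set per gene those of Mrps26 (adjusted p = 0.0677), Mrpl3 (0.106) and Mrps22 (0.0515) were also lost.

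Members called in the middle to late step and not in the first were led by Mrpl18, a bacterial-type protein of the large subunit. Its ratio was 1.1 at 0 h, 0.881, 0.876, 1.01 and 0.941 early, 0.656, 0.748, 0.973 and 0.832 in the middle, and 1.11, 1.28, 1.19 and 1.54 late. Its late arrays were above all 8 early and middle ones, the 2.5 h array was lowest, and the middle to late rise was 0.68 ± 0.11 (adjusted p = 0.00311). Its early to middle value was -0.22 ± 0.11 (adjusted p = 0.182). Mrpl49 (0.46 ± 0.07, adjusted p = 0.00161), Mrpl9 (0.45 ± 0.07, adjusted p = 0.00308) and Mrps27 (0.43 ± 0.07, adjusted p = 0.00214) rose by similar amounts in this step. Mrpl36, the counterpart of a very small bacterial ribosomal protein, rose by 0.40 ± 0.09 (adjusted p = 0.0154). Mrpl27, whose bacterial counterpart reaches the peptidyl transferase centre, rose by 0.37 ± 0.09 (adjusted p = 0.0203), and its late minus early value of 0.18 ± 0.09 was not called (adjusted p = 0.206). Without the 2.5 h array 11 of the 23 middle to late rises were called, and 12 without the 6.0 h array. The middle to late rise of Mrps18b was no longer called without the 2.5, 3.0, 5.0, 5.5 or 6.0 h array (adjusted p from 0.0509 to 0.0938). That of Mrpl36 was lost without 6.0 h (adjusted p = 0.0539), and that of Mrpl27 without 2.5 h (adjusted p = 0.0524) or 3.0 h (adjusted p = 0.0523). On 1 probe set, Mrpl27 was at 0.17 in this step (adjusted p = 0.124).

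Over all genes, the share of middle to late calls that were higher was 83.3%, and it was 72.1% after centring each array on its median and 69.0% after quantile normalization. The members' median for this step was 0.16, 0.13 and 0.15 in the same order.

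**Figure D5:**
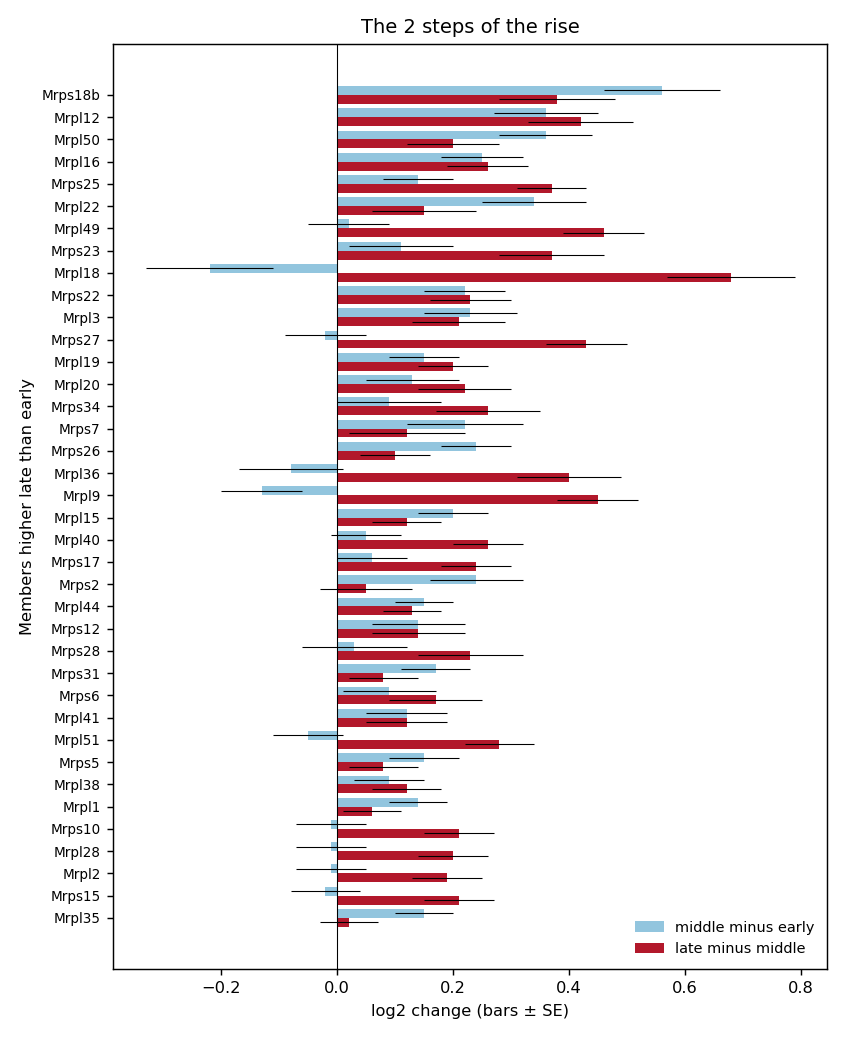
Middle minus early (light blue) and late minus middle (red) log2 change (± SE) of the 38 members called higher late than early, in order of that change. Mrps18b has sizeable bars of both colours, while Mrpl49, Mrps27, Mrpl18, Mrpl9 and Mrpl36 have red bars of 0.40 or more and blue bars near or below 0.

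Mrpl45 was the 1 member that fell from early to middle, and without the 6.0 h array 2 members fell. Its protein holds the mitoribosome at the inner membrane, where the new peptides are inserted. Its ratio was 1.25 at 0 h, 1.31, 1.03, 1.01 and 0.992 early, 0.733, 0.777, 0.835 and 0.75 in the middle, and 0.916, 0.937, 1.0 and 1.14 late. All middle arrays were below all others. The fall was -0.48 ± 0.09 (adjusted p = 0.00252), followed by a rise of 0.36 ± 0.09 (adjusted p = 0.0203), and the late minus early value was -0.12 ± 0.09 (adjusted p = 0.434).

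In the first 2.0 h after serum return, 0 members rose and 1 fell against 0 h, beside 1.46% of all genes higher and 1.81% lower. At an unadjusted p under 0.05 by limma, 0 were higher and 6 lower. The median was -0.06 over the members and -0.03 over all genes. The member that fell was Mrps35, a mitochondrial-specific small-subunit protein. Its ratio was 1.38 at 0 h and 0.996, 0.994, 0.96 and 0.961 on the early arrays, a change of -0.49 ± 0.09 (adjusted p = 0.0153), and it was between 0.869 and 1.09 on all later arrays. Quantile normalization ended this call (adjusted p = 0.186) and turned the all-gene balance of this comparison from 265 higher and 329 lower to 38 higher and 7 lower. Without the 0.5 h array 2 members fell, Mrpl4 among them (-0.37, adjusted p = 0.0208). The next largest values were -0.44 ± 0.15 for Mrpl36 (adjusted p = 0.12), -0.33 ± 0.09 for Mrpl4 (adjusted p = 0.0655) and -0.30 ± 0.09 for Mrpl24 (adjusted p = 0.0748), none of them called. All of these rest on the single 0 h array, which was the highest array for 6 members, 7.89% of the family, beside 18.2% of all genes.

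The gene value is a mean over probe sets. Of the 42 members on several probe sets, the late minus early change, rounded to 2 decimals, had 1 sign on all of them in 28. The other 14 had differing signs or, in Mrpl1 and Mrpl42, a lowest value that rounded to 0. The range of this change between probe sets had a median of 0.19 and passed 0.5 in 4 genes. These were Mrpl3 (0.66), Mrpl15 (0.63), Mrps10 (0.63) and Mrpl50 (0.52). Over single probe sets, 135 of the 156 were higher late than early.

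The other genes of the mitochondrial translation machinery were taken from lists of known roles. Of the mitoribosomal proteins that carry other symbols, 4 had a value of their own. Gadd45gip1 rose from early to late (0.25 ± 0.07, adjusted p = 0.0166) and Dap3, a small-subunit protein that binds GTP, fell (-0.21 ± 0.05, adjusted p = 0.011). Ptcd3 was at 0.22 ± 0.08 (adjusted p = 0.0553). Dap3 thus moved opposite to the called members.

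From early to late, 11.7% of all genes were called higher and 9.29% lower. Of 26 genes for assembly of the mitoribosome or modification of its RNA, 13 rose from early to late and 0 fell (median 0.22). The 13 included Rcc1l (0.80 ± 0.09, adjusted p = 3.28e-05), the GTPase Gtpbp10 (0.66 ± 0.07, adjusted p = 2.48e-05) and the ribosomal RNA methyltransferase Mrm1 (0.57 ± 0.11, adjusted p = 0.0016). Of 14 measured genes listed for mitochondrial translation factors and related proteins, 8 rose and 0 fell (median 0.22). The release factor Mtrf1l rose by 0.70 ± 0.09 (adjusted p = 0.000134), C1qbp by 0.62 ± 0.07 (adjusted p = 6.22e-05) and the elongation factor Gfm1 by 0.53 ± 0.09 (adjusted p = 0.000929).

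A list of 17 genes joined those for mitochondrial DNA and its transcription with regulators of nuclear genes such as Nrf1 and Myc. Of these, 5 rose and 1 fell (median 0.20), beside 11.7% of all genes higher and 9.29% lower. Tefm, a mitochondrial transcription elongation factor, rose by 0.57 ± 0.09 (adjusted p = 0.0003), and the mitochondrial helicase Twnk by 0.52 ± 0.07 (adjusted p = 0.000122). The 1 that fell was Myc, a transcription factor that binds E-boxes, at -0.71 ± 0.16 (adjusted p = 0.0056). From 0 h to the early window, Myc rose by 2.34 ± 0.25 (adjusted p = 0.000522). Nrf1, which encodes the factor named for the NRF1 word, was at 0.02 ± 0.05 late minus early (adjusted p = 0.875). Gabpa was at -0.04 ± 0.08 (adjusted p = 0.81) and Yy1 at -0.01 ± 0.06 (adjusted p = 0.955) in the same comparison. Gabpa fell from early to middle (-0.31 ± 0.08, adjusted p = 0.0103) and rose from middle to late (0.27 ± 0.08, adjusted p = 0.0298). The part of these factors in the course of the members was not tested.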

How the data were processed

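The values are the authors' deposited ratios on 13 arrays (biotin-labelled total RNA). Per the submitters' processing notes the arrays were summarised with RMA (version not given in the sources used here). How the reference of each ratio was formed is not stated. In 36481 of the 45037 probe sets left after 64 controls, exactly 1 array is at 1. Array medians lie between 0.977 and 1.0. The number of arrays limits the precision. A probe set was used if its annotation named 1 gene (34945; 932 named several and 9160 none). The gene value was the mean log2 ratio over its probe sets, with no further normalization.

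One limma 3.58.1 fit (R 4.3.3) of 4 window means held all 13 arrays (residual degrees of freedom 9, median residual SD 0.102), two-sided, adjusted over 18193 genes. It was tested on simulated data. Tables used Python 3.11.15. Genes were named by rank of change, up to 8 rises and 8 falls per comparison (the 4 largest values where fewer than 4 passed), 6 for the spline, the Mrps18 paralogs and up to 3 per other list. Nrf1, Gabpa and Yy1 were also given because of the promoter words searched. Members and lists were chosen with earlier results of these data known. Alternatives were other scalings, 1 probe set per gene, variance settings, a minimum change of 0.25 and leaving out each array. A planned comparison of Mrps18 protein sequences was not run.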

Additional observations from a re-analysis of the deposited data

Results flagged for a closer look

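In windows of 4 arrays, 5 of 66 tested groups (22 named members, 3 windows each) had 1 array set apart from the others by more than Dixon's 95% limit. Chance gives about 1 in 20. Arrays of a window are different times, so such a gap can be change over time. Mrps18b stood at a log2 ratio of 0.62 at 6.0 h, above the other late arrays, and Mrpl3 at 0.10 at 6.0 h, below them. Mrpl45 stood at 0.40 at 0.5 h, above the other early arrays. Among late arrays, Mrpl24 was highest at 4.5 h, at 0.04, and Mrpl4 lowest at 5.5 h, at -0.04.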

How the results depend on the processing

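No paired analysis was possible because each time has 1 array and the replicate numbers were given in accession order. The 38 late minus early rises became 30 to 39 under 5 other scaling, variance and probe set choices, 38 without the middle window, 28 with a minimum change of 0.25 and 27 to 38 without single arrays, with 0 falls throughout. The count of 42 for the spline became 31 to 46 without single arrays and 34 to 47 otherwise. Early to middle rises fell from 11 to 5 with the minimum change and ran from 5 to 13 without single arrays; falls ran from 1 to 2. Middle to late rises fell from 23 to 15 with the minimum change and ran from 11 to 26. Early against 0 h, the 1 fall became 0 after quantile normalization, 2 with 1 probe set per gene and 1 to 2 without single arrays. The causes were not tested. Over 530 checks of named members, 498 kept their call, 31 lost it, 1 gained it (Mrpl4 against 0 h without the 0.5 h array, adjusted p = 0.0208) and none reversed.

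The arrays have no replicates, changes before 2.0 h rest on 1 array at 0 h, and ratios carry no absolute level. Of the 156 probe sets, 2 (of Mrps14 and Mrpl13) had a reference that looked like a floor value; leaving such probe sets out left the 38 rises at 38.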
